A study of Mus musculus with 2 samples.

Results

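Migratory dendritic cells are described here as 175 cell barcodes from B16F10 melanomas that carried transcripts of both Ccr7, the chemokine receptor that guides dendritic cells to lymph nodes, and Fscn1, which encodes the actin-bundling protein fascin. Members were chosen by their measured counts: each held 3 or more UMIs (unique molecular identifiers, 1 per captured RNA molecule) of both genes. Members also had C1qa, C1qb and C1qc together below 0.2% of UMIs, at most 1 UMI of Cd3e, Cd3d and Cd3g, and at most 1 UMI of Cd79a and Cd79b, which limits macrophage, T cell and B cell RNA. Of 13817 barcodes in all, 12815 were kept for having no fewer than 200 genes with a UMI and no more than 10% of UMIs from mitochondrial genes. The control library gave 88 members of 7086 barcodes and the other library 87 of 5729.

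The cells were live CD45+ cells sorted from subcutaneous tumors of B16F10, a mouse melanoma line, at day 14 in C57BL/6 hosts, and were sequenced with the 10x Genomics 3' kit. Control hosts were Usp18f/f, which carry loxP-flanked alleles of Usp18, and the other hosts were Usp18f/f LysM-Cre, in which Cre is expressed from the Lyz2 locus of monocytes, macrophages and granulocytes. Both groups therefore carry the floxed alleles, and LysM-Cre is not a driver chosen for dendritic cells. Cells of 4 tumors were pooled into 1 library per group, so that no test between the groups is possible and every interval below covers counting error only. The libraries held 43412346 and 48167632 UMIs, and kept barcodes had a median of 2840 and 4682.

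Dendritic cells that take up antigen in a tumor can mature, raise Ccr7 and leave for the draining lymph node. Maturation is known to bring costimulatory ligands, chemokines such as Ccl22 and a transcriptional program of NF-kB, along with inhibitory molecules such as PD-L1 (Cd274), while new synthesis of MHC class II falls. Type I interferon acts on such cells through Ifnar1 and Ifnar2, Stat2 and Irf9, and Usp18, itself interferon-induced, removes ISG15 from proteins and restrains the receptor.

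The results turn on 2 groups of genes, interferon-stimulated genes and the NF-kB pathway, and the bases before the start of 8 of them are shown to let the promoters be compared. Each run is 160 bases, 5′ to 3′ on the gene's strand, ending at the base before the RefSeq start (GRCm38.p6). In the first 6, capitals mark the core of the interferon-stimulated response element (GAAA, any 2 bases, then GAAA, on either strand), and overlapping matches are merged. Isg15 lies at chr4:156200819-156200978 on the minus strand, Bst2 at chr8:71537473-71537632 (minus), Phf11b at chr14:59341331-59341490 (minus), Rsad2 at chr12:26456453-26456612 (minus), Ifit1 at chr19:34640729-34640888 (plus) and Epsti1 at chr14:77904079-77904238 (plus). Rel at chr11:23770970-23771129 (minus) and Tnfaip2 at chr12:111442501-111442660 (plus) have the NF-kB consensus in capitals.
Isg15: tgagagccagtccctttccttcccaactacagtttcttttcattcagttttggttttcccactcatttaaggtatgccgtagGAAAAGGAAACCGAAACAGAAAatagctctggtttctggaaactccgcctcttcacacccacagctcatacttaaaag
Bst2: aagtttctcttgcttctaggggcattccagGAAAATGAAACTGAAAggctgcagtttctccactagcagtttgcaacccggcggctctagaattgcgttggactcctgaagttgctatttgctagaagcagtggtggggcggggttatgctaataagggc
Phf11b: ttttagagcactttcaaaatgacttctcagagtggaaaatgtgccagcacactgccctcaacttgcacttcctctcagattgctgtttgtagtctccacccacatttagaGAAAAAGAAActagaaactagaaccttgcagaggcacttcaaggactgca
Rsad2: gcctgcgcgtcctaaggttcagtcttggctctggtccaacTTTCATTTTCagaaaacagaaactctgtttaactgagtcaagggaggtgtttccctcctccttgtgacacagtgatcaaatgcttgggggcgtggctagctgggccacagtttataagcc
Ifit1: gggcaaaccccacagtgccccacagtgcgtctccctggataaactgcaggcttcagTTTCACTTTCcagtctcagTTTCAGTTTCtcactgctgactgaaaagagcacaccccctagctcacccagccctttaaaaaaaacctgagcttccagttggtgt
Epsti1: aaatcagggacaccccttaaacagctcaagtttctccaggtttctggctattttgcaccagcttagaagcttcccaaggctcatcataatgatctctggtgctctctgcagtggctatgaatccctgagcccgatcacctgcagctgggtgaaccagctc
Rel: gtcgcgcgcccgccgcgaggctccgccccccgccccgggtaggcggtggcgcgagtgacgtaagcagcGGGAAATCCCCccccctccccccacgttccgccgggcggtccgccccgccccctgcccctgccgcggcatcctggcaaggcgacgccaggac
Tnfaip2: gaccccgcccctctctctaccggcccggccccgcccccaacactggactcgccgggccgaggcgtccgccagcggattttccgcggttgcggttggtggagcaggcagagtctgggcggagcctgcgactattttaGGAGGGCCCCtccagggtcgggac
Isg15 held 3 overlapping matches, from 78 bases before the start, Ifit1 held 2 separate ones and Epsti1 held none in this window. Among the interferon-stimulated genes of the list used here, 41 of 54 had a RefSeq promoter of 300 bases (250 before and 50 after the start), and 22 of them (53.7%) held the motif. The share over all 27025 genes with such a promoter was 3.99%. The NF-kB consensus, searched on both strands, was present for 10 of 18 genes of the NF-kB pathway (55.6%), against 9.55% of all genes. A match in these letters is a description of the window and says nothing of binding.

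Members made up 1.24% (exact 95% interval 0.997 to 1.53) of kept control barcodes and 1.52% (1.22 to 1.87) of kept barcodes in the library labelled knockout. The ratio of the shares was 1.22, with an interval of 0.911 to 1.64 that includes 1. Median depth was 6461 UMIs per control member (1824 to 71456) and 7265 in the library labelled knockout (2363 to 68940). The sums analysed were 671723 and 796045 UMIs. The libraries shared 8 barcode sequences, none of them a member. Of barcodes with at least 3 UMIs of both genes, 97 and 128, 5 and 33 failed the limit on Cd3, 3 and 13 that on C1q and 1 and 5 that on Cd79. The lower of the 2 counts was exactly 3 in 7 and 9 members, and exactly 2 in 8 and 10 barcodes just outside. Of the barcodes just outside, 7 and 10 held Cacnb3.

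The label was checked on genes that the rule did not use. Cacnb3, a calcium channel subunit gene, was detected in 84 of 88 and 84 of 87 members, Il4i1, an amino acid oxidase that restrains T cells, in 69 and 75, and Ccl22, a ligand of Ccr4, in 63 and 69. All 3 were present in 49 and 59 members, and 1 control member had none. Of the genes that define resident conventional dendritic cells, Xcr1, the cDC1 chemokine receptor, had 1.49 CPM and 0 CPM (UMIs per 1000000 UMIs of the summed members), against 491 and 441 CPM in cDC1-like cells, which were chosen on it. Cd209a, which marks cDC2, had no UMI in control members and 25.1 CPM in the library labelled knockout, all from 1 cell. The whole list of 16 cDC1 genes, which includes Irf8 and Batf3, summed to 866 and 1173 CPM, and that of 14 cDC2 genes to 435 and 588 CPM, with 3 or more UMIs in 69 and 70 members and in 33 and 45. Marker sums were low for T cells (26.8 and 22.6 CPM) and B cells (5.95 and 12.6 CPM). Those lists include the Cd3 and Cd79 genes that the rule limited, so their low sums are partly set by the rule and are no check.

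The targeted gene, itself interferon-induced, was higher and not lower in the other library. Usp18 was 8.93 CPM in control members and 76.6 CPM in the other library's (ratio 8.58, interval 3.72 to 24.3), with UMIs in 5 and 25 members. It was 15.9 and 67.8 CPM in cDC1-like cells, 27.9 and 119 CPM in cDC2-like cells and 11.2 and 19.8 CPM in B cells. A 3' count does not show which exons a transcript holds. Lyz2, whose locus carries Cre, went with the label, at 258 and 2.51 CPM. In the 65 and 49 members without a UMI of 10 monocyte markers it was 20.8 and 0 CPM. Usp18 was 4.63 and 34.8 CPM there (ratio interval 1.68 to 69.2), on 2 and 12 UMIs. Since these counts do not show the deletion in members, the second library is called the library labelled knockout throughout.

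Members differed from the other conventional dendritic cells of the same tumors in MHC class II genes and in some chemokines. They also differed in genes of the lists for migration and the cytoskeleton, costimulation and immune regulation. The comparison sets were cDC1-like cells (at least 3 UMIs of Xcr1 and Clec9a, 121 and 100 cells) and cDC2-like cells (at least 3 UMIs of Cd209a, 205 and 152 cells), under the same limits on other lineages. Of 10336 genes with at least 20 UMIs, 171 (1.65%) were at least 4-fold above both sets in both libraries and 60 (0.58%) at least 4-fold below, on the scale of CPM + 5. Ccr7 and Fscn1 are left out of these counts, since they chose the cells, and the comparison is a description with no test.

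**Figure D1:**
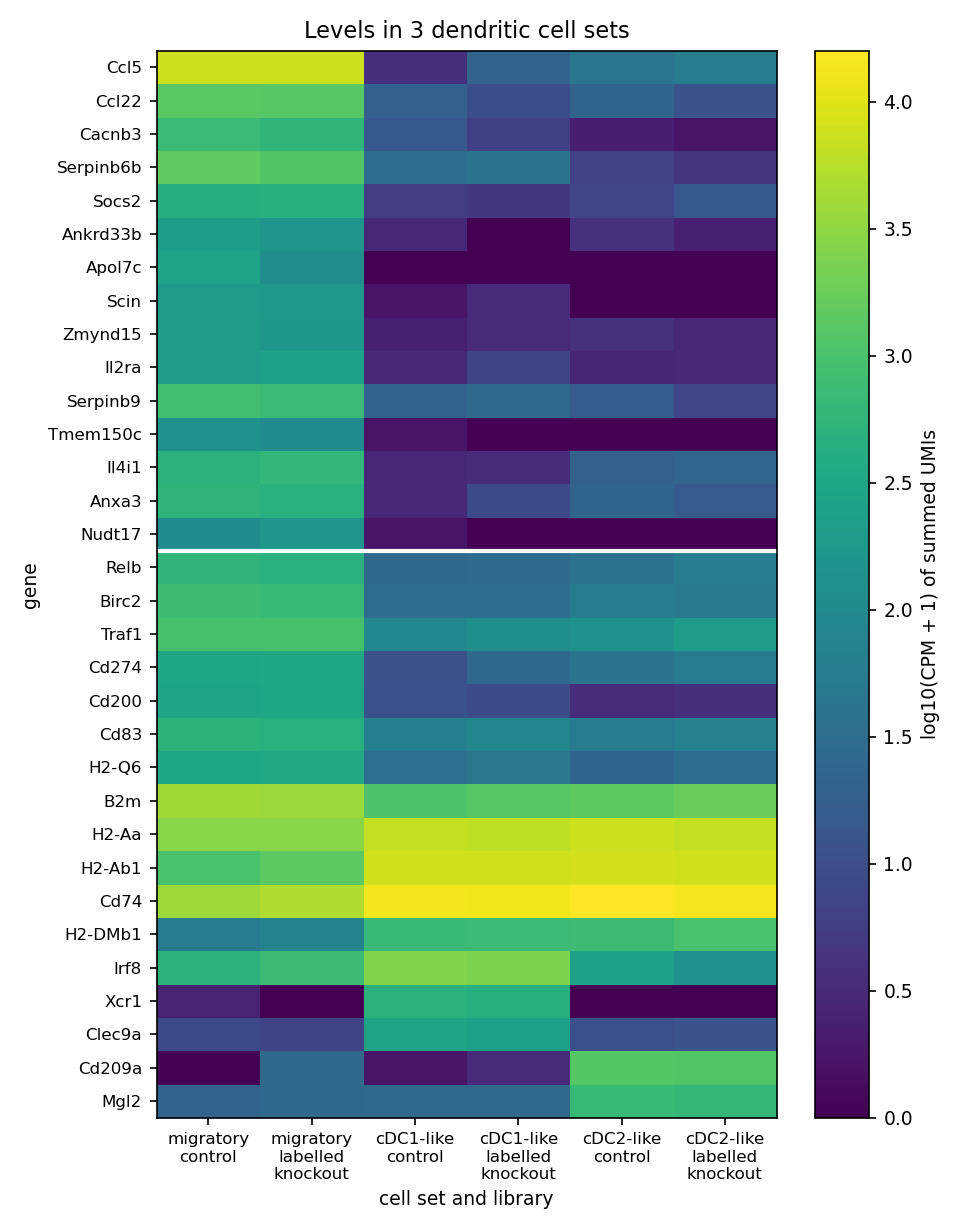
Summed level, as log10(CPM + 1), of 32 genes in members, cDC1-like and cDC2-like cells of each library; the 15 genes above the white line are those furthest above both sets. Ccl5 was 7362 and 7287 CPM in members and at most 57.5 CPM elsewhere, while Cd74 was higher in both conventional sets.

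Of 14 chemokines 3 passed 4-fold above both sets, and the list's median log2 ratio over cDC2-like cells was below 0, at -0.82 and -0.33. Ccl5, which attracts T cells and NK cells, was 7362 CPM in control members and 7287 CPM in the library labelled knockout. It was 2.65 and 20.6 CPM in cDC1-like and 43.7 and 57.5 CPM in cDC2-like cells, so that the smallest of the 4 ratios was 117-fold. In B cells, used as a background for free RNA, Ccl5 was 135 and 59.3 CPM and present in 3.47% and 3.04% of cells at a median of 1553 and 1834 UMIs, against 93.2% and 86.2% of members. Ccl22 was 1350 and 1266 CPM in members and no more than 21.8 CPM in either conventional set. Cxcl16, the ligand of Cxcr6, was 735 and 771 CPM, with a smallest ratio of 5.76. Of the cytokine and cytokine receptor genes, 3 of 17 passed 4-fold above both sets: Il12b (284 and 224 CPM), the shared subunit of IL-12 and IL-23, Il15ra (244 and 161 CPM), which presents IL-15, and Il2ra (199 and 255 CPM), the IL-2 receptor alpha chain.

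Costimulatory genes passed in 5 of 13 cases. Cd83 was 523 and 467 CPM in members and between 50.3 and 84.6 CPM in the conventional sets. Cd80, the ligand of Cd28 and Ctla4, was 93.8 and 104 CPM, against 3.05 to 21.4 CPM. Tnfrsf9 (208 and 207 CPM), Tnfrsf4 (144 and 114 CPM) and Cd70 (53.6 and 27.6 CPM) also passed, and Cd86 did not, at 176 and 251 CPM in members. Inhibitory and regulatory genes passed in 5 of 17 cases. Cd274 was 290 and 333 CPM against 9.92 to 55.5 CPM, and Cd200, an inhibitory ligand of myeloid cells, was 283 and 307 CPM against 2.42 to 10.6 CPM. Il4i1 (502 and 605 CPM), Socs2 (420 and 442 CPM), which restrains cytokine receptors, and Fas (80.4 and 87.9 CPM) were the other 3.

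The list of the NF-kB pathway, which also holds a few STAT genes, had median log2 ratios of 2.11 and 1.94 over cDC1-like and 1.60 and 1.19 over cDC2-like cells in the 2 libraries, and 4 of 21 passed 4-fold above both. These were Relb (533 and 464 CPM), the partner of the p52 subunit, Birc2 (788 and 665 CPM) and Traf1 (956 and 958 CPM), which act in TNF receptor complexes, and Stat4 (459 and 379 CPM), a factor of cytokine receptor signalling and not of NF-kB. Rel, whose promoter is shown above, was 846 and 695 CPM in members and between 108 and 181 CPM in the conventional sets. The NF-kB consensus was present in the promoters of 27 of 131 genes that stood 4-fold above both sets (20.6%), against 13.1% of the genes measured in members. The 2 shares have unlike bases, since the former genes were drawn from 10336 measured over members and both conventional sets together. Of the list for migration and the cytoskeleton 10 of 16 genes passed, among them Tbc1d4, Marcksl1, Tmem123 and the fatty acid carrier Fabp5 (3317 and 4893 CPM). That list also holds Cacnb3, on which the label was checked, and genes of other roles such as Fabp5. It was chosen with earlier results known, so its count is no test of a migration program.

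The other genes with the highest ratios over both sets were Serpinb6b and Serpinb9, which inhibit serine proteases such as granzymes, and Ankrd33b, Apol7c, Scin, Zmynd15, Tmem150c, Anxa3 and Nudt17. Their smallest ratios lay between 19.8 and 25.9. Scin, which severs actin filaments, was 188 and 170 CPM in members and at most 2.29 CPM in the conventional sets. Apol7c had no UMI in either conventional set of either library and was 262 and 119 CPM in members.

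Antigen presentation split by class. Of 15 genes of the MHC class II pathway, 5 were at least 4-fold below both conventional sets in both libraries. H2-DMb1, a chain of the peptide exchange factor H2-DM, was 52.1 and 74.1 CPM in members and between 681 and 975 CPM in the conventional sets. H2-Ab1 was 989 and 1396 CPM against 7817 to 8204 CPM, and Ciita, the master regulator of the class, was 35.7 and 32.7 CPM against 210 to 287 CPM. H2-DMa and March1 were the other 2. H2-Eb2 went the other way, at 55.1 and 56.5 CPM against 1.52 to 2.65 CPM. MHC class I genes were not below: H2-Q6 (332 and 335 CPM) and H2-Q7 (686 and 786 CPM) passed 4-fold above both sets, and B2m was 3982 and 3737 CPM against 1059 to 1759 CPM. Irf8, which cDC1 require, was 493 and 749 CPM in members, under the 2549 and 2386 CPM of cDC1-like cells and above the 255 and 134 CPM of cDC2-like cells.

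Individual members differed widely in MHC class II and in the cytokines they carried. The summed share of MHC class II genes ran from 0.0464% to 4.09% of a control member's UMIs (median 0.710%) and from 0.139% to 5.24% (median 1.07%) in the library labelled knockout. Across cells it ran against Ccl5, with Spearman's rho of -0.56 over 88 members and -0.46 over 87. Its rho with total UMIs was 0.20 and 0.12. The points are single cells of 1 library each, their shares have the same total as denominator, and these values are descriptions.

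**Figure D2:**
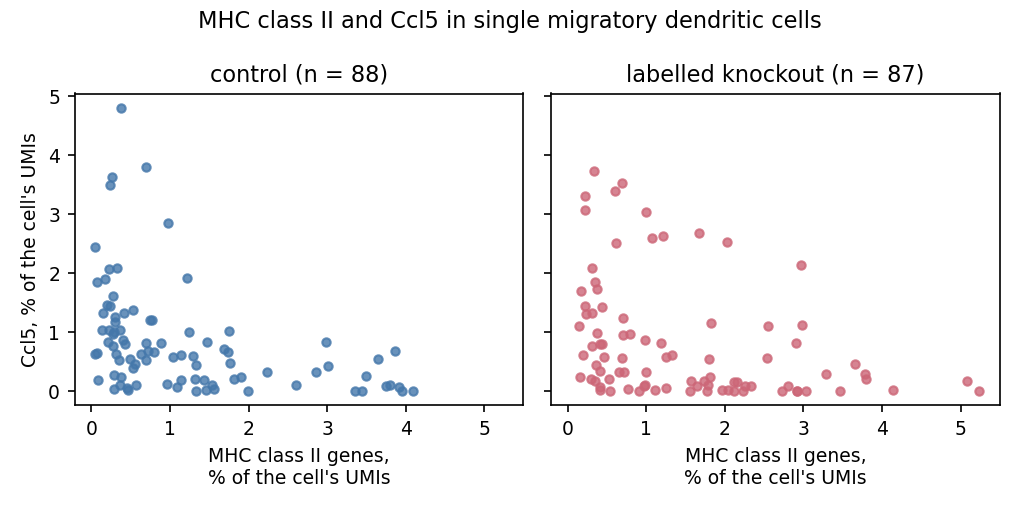
Share of each member's UMIs in MHC class II genes (horizontal, percent) against its share in Ccl5 (vertical, percent), 1 point per cell, for control and the library labelled knockout. Cells with more than 3% in MHC class II genes were all under 1% in Ccl5 in both panels.

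Il12b was found in 22 of 88 and 28 of 87 members, and Ccl17, which shares the receptor Ccr4 with Ccl22, in 17 and 19. Both were nearly absent from B cells, at 0.0738% and 0% of cells for Il12b. The 9 members with the most UMIs of each gene held 84.8% and 75.8% of all Il12b and 93.0% and 94.2% of all Ccl17. Of control members with Il12b, 21 of 22 also had Irf8, against 62.1% of those without, and the counts in the library labelled knockout were 23 of 28 and 62.7%. Of members with Ccl17, 16 of 17 and 18 of 19 had Ccl22, against 66.2% and 75% of those without, and 82.4% and 63.2% had Irf8, against 67.6% and 70.6%. Il12b and Ccl17 were found together in 7 and 6 members. Ccl17 was in 31.8% and 21.4% of members with Il12b and in 15.2% and 22.03% of those without, so that they did not exclude each other. None of these shares was adjusted for the UMIs per cell, and a deeper cell is more likely to show both genes of a pair.

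Between the libraries, interferon-stimulated genes were higher in members of the library labelled knockout. Most genes that set members apart from conventional dendritic cells were within 2-fold, as were most genes measured. Of 6499 genes with at least 20 UMIs over both libraries, 293 (4.51%) were at least 2-fold higher in the library labelled knockout and 123 (1.89%) at least 2-fold lower. The median log2 ratio of all of them, on the scale of CPM + 5, was 0.01. All log2 ratios below are on that scale, library labelled knockout over control.

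**Figure D3:**
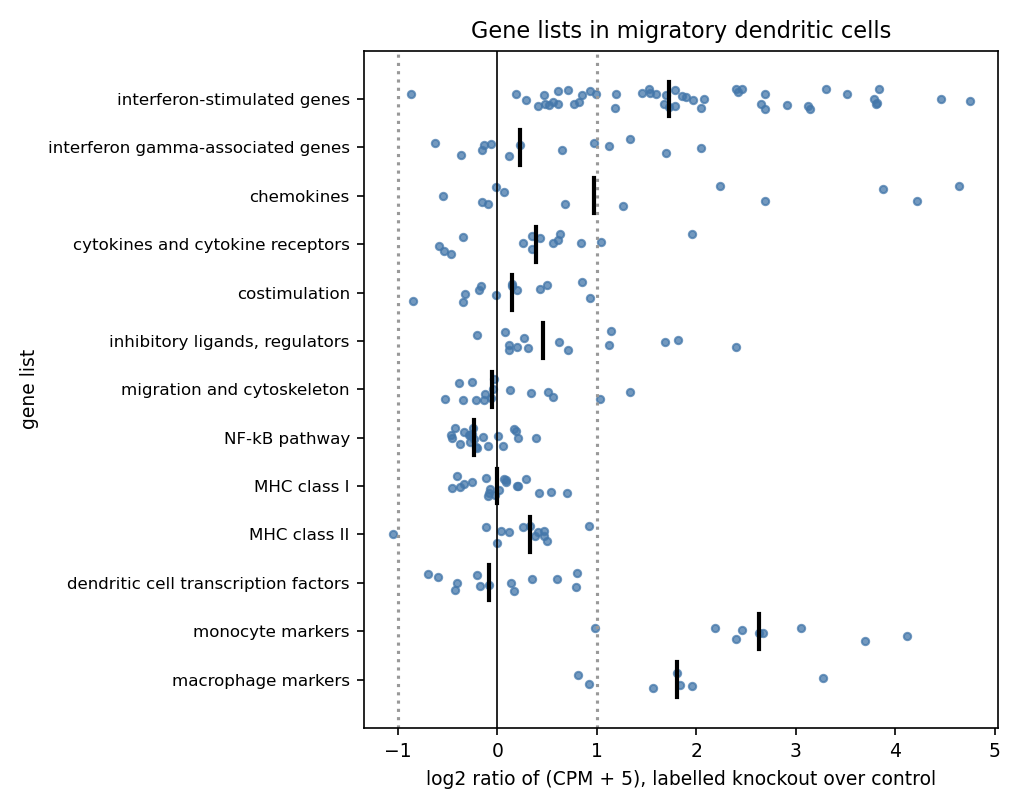
Log2 ratio of (CPM + 5), library labelled knockout over control, for each measured gene of 13 lists in members; black bars are list medians and dotted lines mark 2-fold. Interferon-stimulated genes had a median of 1.73, monocyte markers 2.63, and the NF-kB pathway -0.24.

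Of 49 interferon-stimulated genes measured, 48 had a ratio above 0, 33 were at least 2-fold higher and none was 2-fold lower. The list's median was 1.73. Setting the 3 genes that had no control UMI at their bound could not move it, since their log2 bounds (2.56 to 3.87) lie above it. Isg15, the ubiquitin-like protein that Usp18 removes, was 89.3 CPM in control members and 927 CPM in the others (ratio 10.4, interval 7.97 to 13.7). It had a UMI in 27 of 88 and 62 of 87 members, and in 1.77% and 5.37% of the shallower B cells. Rsad2, the antiviral enzyme viperin, was 8.93 and 369 CPM, and Irf7, which amplifies interferon production, 5.95 and 236 CPM. Ifit1 (7.44 and 137 CPM), Ifit2 (7.44 and 173 CPM) and Ifit3 (2.98 and 107 CPM) bind foreign RNA or assist in this. Isg20, an exonuclease, had no control UMI and 64.1 CPM in the library labelled knockout. That is 14.3-fold above a floor of 3 control UMIs, and the exact ratio interval starts at 11.2. Apart from Isg15, these genes had UMIs in 9 to 31 of the 87 members.

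The exception of the list was Epsti1, at 1194 CPM in control members and 653 CPM in the library labelled knockout (log2 ratio -0.87). It was found in 74 and 73 members, and its level in conventional dendritic cells was far lower, between 122 and 198 CPM. The receptor and its kinase were close in both libraries: Ifnar1 had a ratio of 1.04 (0.697 to 1.56) and Jak1 was 150 and 151 CPM. Interferon gamma-associated GTPases and factors had a median log2 ratio of 0.23 and ran from -0.63 to 2.05. Of these, 4 of 13 were at least 2-fold higher, against 4.51% of all genes measured. Gbp2 (207 and 198 CPM) and Irf1 (191 and 147 CPM) were not among the 4. No interferon-beta (Ifnb1) UMI was found in any member, and the exact interval for 0 UMIs in control members reaches 5.49 CPM. The list's median was also above 0 in cDC1-like (0.81) and cDC2-like cells (1.16).

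Monocyte markers moved with the interferon-stimulated genes. Whether the marker UMIs came from mixed barcodes, free RNA or the members themselves was not tested. The 10 monocyte markers summed to 222 CPM in control members and 1372 CPM in the library labelled knockout, with 8 of 9 measured at least 2-fold higher. The sums came from a minority of cells. The median per member was 0 in both libraries, and 9 and 25 members held 3 or more such UMIs. The top cell held 20.1% and 12.6% of them. In B cells, where Plac8 is also expressed, the markers summed to 1745 and 2004 CPM. Ly6c2 had a UMI in 4 and 19 members, Chil3 in none and 9, Ccr2 in 8 and 19, and Plac8 in 14 and 32, and Ace was at 0 in both. Of these, Ccr2 and Plac8 are also present in cDC2-like cells, at 926 and 856 CPM in control. All 19 members with Ly6c2 in the library labelled knockout also held Isg15, and none of the 4 in control did. Macrophage markers went from 194 to 719 CPM. The share of UMIs in interferon-stimulated genes had a rho of 0.54 with that in monocyte markers over the 87 members, and 0.14 over the 88 control members, and of 0.33 and 0.17 with total UMIs.

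**Figure D4:**
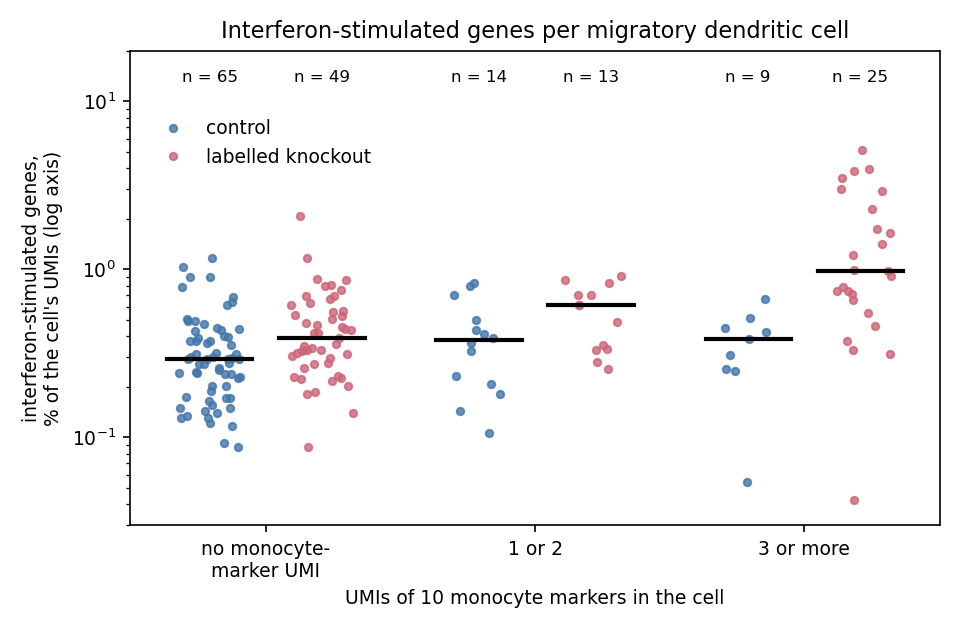
Share of each member's UMIs in interferon-stimulated genes (percent, log axis), by the number of UMIs of 10 monocyte markers in the same cell; points are cells and bars medians. The medians were 0.293% and 0.391% without such UMIs and 0.388% and 0.982% with 3 or more.

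Per cell, interferon-stimulated genes took a median of 0.300% of UMIs in control members (0.0546% to 1.17%) and 0.509% in the library labelled knockout (0.0422% to 5.11%). The ranges overlapped: 70 of 87 members lay above the control median and 12 above the highest control member. With every cell thinned to 3000 UMIs, which left out 4 members of each library, the medians were 9 and 16 UMIs. The highest levels were in few cells, and the 9 members with the most UMIs held 69.5% of Isg15 and 96.3% of Rsad2 in the library labelled knockout. Members without a monocyte-marker UMI, a choice made after the data were seen, numbered 65 and 49. Their medians were 0.293% (0.0873% to 1.17%) and 0.391% (0.0872% to 2.09%), at 6258 and 6098 UMIs per cell.

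In those 65 and 49 members the list's median log2 ratio was 0.39 over 28 measured genes, with 20 above 0, 8 at least 2-fold higher and none 2-fold lower. Over all 4294 genes measured in these members, 108 (2.52%) were at least 2-fold higher and 126 (2.93%) lower. Isg15 was 102 and 627 CPM (ratio 6.16, interval 4.43 to 8.72). Ifi27l2a was 107 and 587 CPM, Ifitm3, which blocks viral entry, 199 and 444 CPM, Ly6e 46.3 and 122 CPM, and Phf11b 62.5 and 148 CPM, each with an interval above 1. Irf7 was 6.95 and 49.4 CPM (2.06 to 37.9). Bst2, also called tetherin, was 109 and 215 CPM, just under 2-fold on the log scale. Ifi27l2a and Ifitm3 were 244 and 301 CPM in control B cells, above the 128 and 256 CPM of all control members. The same held for Ly6e (1748 against 65.5 CPM), Bst2 (106 against 95.3 CPM) and Irf7 (21.4 against 5.95 CPM). Control levels of these 5 genes in members were thus no higher than in B cells. B cell values can include RNA that B cells make themselves, so they do not give the level of free RNA alone. B cells of the library labelled knockout had 693 CPM of Ifi27l2a, 607 CPM of Ifitm3, 1810 CPM of Ly6e and 74.4 CPM of Irf7, above the members without monocyte-marker UMIs, and 137 CPM of Bst2, below them. Isg15 was 10.9 and 110 CPM in B cells, below the members in both libraries but with a like ratio. How much of the members' difference is free RNA was not tested. Mx1 was 90.3 and 61.0 CPM, and Trim30a 62.5 and 46.5 CPM, with intervals that include 1. Rsad2, Ifit1, Ifit2 and Ifit3 had too few UMIs left to be measured. Over the genes measured there, the response element core was present in 3 of 6 promoters of genes at least 2-fold higher and 7 of 14 of the others. Over all members the counts were 17 of 27 (63.0%) and 3 of 11 (27.3%).

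**Figure D5:**
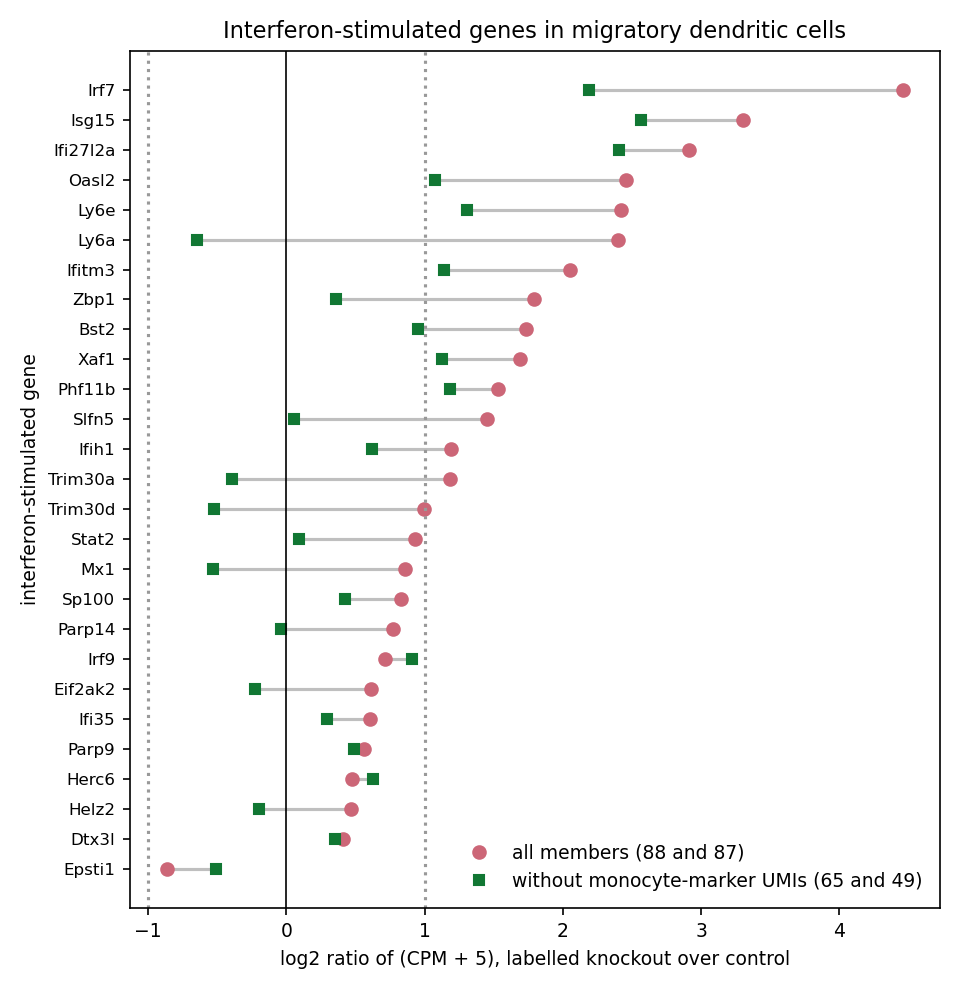
Log2 ratio of (CPM + 5), library labelled knockout over control, of 27 of the 28 interferon-stimulated genes measured in members without monocyte-marker UMIs (green squares), beside the same genes in all members (red circles); dotted lines mark 2-fold. Irf7, Isg15 and Ifi27l2a stayed above 2, and Ly6a, Trim30a, Trim30d, Mx1, Parp14, Eif2ak2 and Helz2 crossed below 0.

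The sex of the cells also differed between the libraries. Xist without Y-linked UMIs was found in 15 control members and 64 of the library labelled knockout, and Y-linked UMIs without Xist in 49 and 11. The per-cell medians of interferon-stimulated genes were 0.299% and 0.499% among members with Xist and 0.302% and 0.459% among those with Y-linked UMIs. The list's median log2 ratio was 2.002 among the former and 0.43 among the latter, where the library labelled knockout had 11 cells.

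Other genes were among those with the largest ratios. Ccl2, a chemokine for monocytes, was 10.4 and 221 CPM, but 178 and 232 CPM in B cells. Slfn4 was 2.98 and 87.9 CPM, Ms4a4c 25.3 and 364 CPM, AI607873 7.44 and 131 CPM, and Thbs1 14.9 and 188 CPM. In members without monocyte-marker UMIs, Ms4a4c was 20.8 and 134 CPM (3.10 to 14.9) and Thbs1 20.8 and 23.2 CPM (0.374 to 3.26). Cxcl10, a ligand of Cxcr3, was 58.1 and 402 CPM over all members, from 3 and 11 cells, and 90.3 and 5.81 CPM without monocyte-marker UMIs, so that its direction turned. The part of monocyte RNA in these differences was not tested.

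Genes of the cytokine, regulatory and migration lists had smaller ratios. Il1rn, the antagonist of the IL-1 receptor, was 35.7 and 153 CPM, and Il1b 258 and 536 CPM. Cish was 14.9 and 59.0 CPM, Socs1 23.8 and 57.8 CPM and Socs3 22.3 and 55.3 CPM, all 3 inhibitors of cytokine signalling. Without monocyte-marker UMIs the ratio intervals of Il1rn (0.913 to 4.22), Cish (0.857 to 5.42), Socs1 (0.863 to 3.66) and Socs3 (0.786 to 5.11) included 1, and Il1b had a log2 ratio of 0.50. Gpr183, the oxysterol receptor that positions dendritic cells, was 124 and 259 CPM over all members and 144 and 334 CPM (1.69 to 3.22) without monocyte-marker UMIs. Ccl17 was 170 and 415 CPM, with 27.7% of its UMIs in 1 cell. Fabp5 was 3317 and 4893 CPM, a log2 ratio of 0.56, and it was 159 and 445 CPM in B cells.

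The lowest ratios were smaller and concerned genes of mixed roles. Clu, the chaperone clusterin, was 73.0 CPM in control members and 21.4 CPM in the library labelled knockout (log2 ratio -1.56, ratio interval 0.158 to 0.517). Agap1, Zc3h12c, Stard10, Slco5a1, Kcnq1ot1, Fosb, Dap, Rif1 and Cdc40 had log2 ratios between -1.35 and -1.07. Without monocyte-marker UMIs, Stard10 (-1.06) and Rif1 (-1.08) were still at 2-fold, and the other 7 were not: Kcnq1ot1 was -0.04, Dap -0.55, Zc3h12c -0.63, Slco5a1 -0.69, Cdc40 -0.82, Fosb -0.91 and Agap1 -0.94. Clu was -1.72 there. Slco5a1, a transporter gene with no UMI in conventional dendritic cells, was 125 and 52.8 CPM and was found in 43 and 22 members. Apol7c was 262 and 119 CPM, yet in 19 and 18 members, and 322 and 200 CPM without monocyte-marker UMIs. Flt3, the receptor for the dendritic cell growth factor, was 255 and 156 CPM (ratio interval 0.482 to 0.776).

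Of the 171 genes that stood 4-fold above both conventional sets, 2 were at least 2-fold higher in the library labelled knockout. Another 6 were at least 2-fold lower, and the median log2 ratio was -0.13. Over all genes measured in members, 4.51% were higher and 1.89% lower. The 171 had to pass in both libraries, which favors genes that differ little between them, so these counts are no check of stability. The 6 include Clu, Slco5a1 and Apol7c. Of the 15 furthest above both sets, Apol7c alone passed 2-fold, and the 15 ran from -1.10 to 0.51, with Cacnb3 at -0.39 and Ccl5 at -0.01. The NF-kB pathway had a median of -0.24 with 0 of 21 genes at 2-fold, MHC class I a median of -0.01 with 0 of 20, and costimulation 0.15 with 0 of 13. MHC class II had a median of 0.33, and 1 of 13 was at least 2-fold lower, H2-Oa (31.3 and 12.6 CPM), an inhibitor of H2-DM. Cd74, the invariant chain, was 3829 and 5088 CPM (interval 1.26 to 1.40). With 1 pool per group these differences have no replicate check.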

How the data were processed

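The authors deposited raw UMI counts per gene and barcode for each library, made with Cell Ranger 3.0.1 on build mm10, per the submitters' processing notes. Members and gene lists were chosen with earlier results of these data known. Counts of members were summed per library and scaled to CPM. Ratios were taken as log2 of (CPM + 5) where both libraries together held 20 UMIs or more, and a gene was called at 2-fold between libraries or 4-fold against both conventional sets. With 1 library per group no test was made. Intervals are exact 95% intervals (Poisson for CPM, Clopper-Pearson for shares, conditional binomial for ratios of CPM) or log-normal for the ratio of shares. UMIs in B cells (at least 3 of Cd79a and Cd79b) served as background, which can include RNA that B cells make themselves. Named genes were the 12 highest and 12 lowest ratios among genes with at least 50 UMIs and no more than 25% of them in 1 cell and a ratio interval that excludes 1 (sex-linked, mitochondrial, ribosomal and unnamed genes left out), and the 15 furthest above both conventional sets. The lists hold 4 genes not analysed here, and a few other genes are not reported here. On simulated counts for 6472 genes, with Poisson noise only, 199 of 200 changed genes were called the right way. The changed genes had at least 50 UMIs and were changed by 4-fold or more, up or down. Changes near 2-fold and changed genes with fewer UMIs were not tried. Calls among the unchanged genes are not reported here, and variation between pools was not tested. Doublets were kept; Scrublet (scanpy 1.11.5) marked 481 and 294 barcodes, 12 and 7 of them members, and leaving them out was an alternative. Promoters came from RefSeq by symbol. Python 3.11.15, numpy 2.4.6, scipy 1.17.1 and pandas 2.3.3 were used.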

Additional observations from a re-analysis of the deposited data

Results flagged for a closer look

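Xist, the RNA of the inactive X chromosome, lies outside the comparisons and stood out in members of the library labelled knockout at 593 CPM (interval 541 to 649), against 174 CPM (144 to 209) in control members. Y-linked genes were at 161 CPM in control members and 40.2 CPM in the others. In conventional dendritic cells Xist was 210 and 813 CPM (cDC1-like) and 175 and 874 CPM (cDC2-like). Each library pooled 4 tumors, and the sex of each host is not used here.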

How the results depend on the processing

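The median log2 ratio of the interferon-stimulated genes, 1.73, lay between 1.42 and 2.002 under 15 of 18 alternatives. It was 0.43 in cells with Y-linked UMIs only, and 0.39 over 28 genes in members without monocyte-marker UMIs. In members without monocyte- or macrophage-marker UMIs (44 and 21 cells) it was 0.51 over 20 genes. The minimum of 20 UMIs was applied anew in each, so these medians need not cover the 49 genes behind 1.73. The last 2 alternatives were chosen after seeing the data. The number of genes at least 2-fold higher, 293, was 132 with at least 50 UMIs, 563 with no minimum, 718 in Xist cells only, 147 in Y-linked cells only, 135 without monocyte- or macrophage-marker UMIs and 108 without monocyte-marker UMIs. The number at least 2-fold lower, 123, was 28, 302, 279 and 477 under the first 4 of these and 211 with a pseudocount of 1 CPM. The ratio of shares, 1.22, was 0.856 with a mitochondrial limit of 5%, 1.81 in Xist cells only and 0.590 without monocyte- or macrophage-marker UMIs. The number of genes 4-fold above both conventional sets ran from 150 to 232. Cxcl10 turned to -3.14 without monocyte-marker UMIs and -4.86 without either kind, Ifit3 to -0.55 without monocyte-marker UMIs and AI607873 to -0.076 without either kind, the last 2 genes on 1 to 3 UMIs in all, too few to give a direction. Why these values moved was not tested, apart from the number of genes measured, which the UMI minimum sets. No paired analysis was possible because each group is 1 library.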

Other observations

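Melanoma transcripts summed to 971 CPM in control members and 1137 CPM in the library labelled knockout, with 97.5% and 95.1% of them in 1 cell of each library. Of the 14 cell cycle genes, the control UMIs were likewise concentrated, with 64.9% in 1 cell. Neutrophil markers summed to 194 and 18.8 CPM, with 67.7% of the control UMIs in 1 cell. The sums also fell in cDC1-like cells (260 and 10.7 CPM), cDC2-like cells (473 and 15.4 CPM) and B cells (567 and 19.8 CPM). Of 8 plasmacytoid dendritic cell markers, only Bst2 (95.3 and 328 CPM), also an interferon-stimulated gene, and Tcf4 (158 and 245 CPM) had UMIs in the library labelled knockout, and Siglech had none in either library.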
